A study of Mus musculus with 8 samples.

Results

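The 10 core pluripotency factor genes Pou5f1, Nanog, Sox2, Esrrb, Zfp42, Utf1, Sall4, Lin28a, Klf2 and Tcl1 were examined in mouse primordial germ cells, the embryonic precursors of eggs and sperm. They were listed by name rather than by their values. Counts were deposited per transcript, and a gene took the values of whichever transcript had most counts over the 8 libraries. They were 10 of 21444 genes with a value, and all 10 were among the 10990 genes tested. The cells came from embryos at embryonic day 11.5 on a mixed C57BL/6 and 129 background. The 4 Control libraries had the genotype Blimp1Cre;Prmt5flox/+, that is, 1 of the copies of Prmt5, an arginine methyltransferase gene, was floxed and Cre recombinase was driven by Blimp1. The 4 Prmt5 KO libraries had the genotype Blimp1Cre;Prmt5flox/flox, so Cre was present in both groups. Cre can thus act on the floxed copy in Control as well, and Control is not a wild-type reference. In both groups cells were flow-sorted by a green fluorescent protein reporter named dPE_Oct4, and Oct4 is the product of Pou5f1, so the sort drew on regulatory sequence of 1 of the genes measured. Blimp1 is also active in some cells outside the germ line, and whether libraries came from separate embryos is not stated, so p-values measure only how far these libraries vary, and part of that may be technical.

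Pluripotency factors are transcription factors and their helpers that hold early embryonic cells in a state able to form every tissue. OCT4, SOX2 and NANOG bind enhancers together, including those of each other's genes, and in this way keep the network running. Primordial germ cells carry this network until they enter mitotic arrest or meiosis, while they are already committed to the germ line. Loss of Oct4 is known to cost germ cells their survival.

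Depth and identity of the libraries were checked before the genes were read. Total gene counts ran from 1811433 to 5844437 in Control and from 4318974 to 6549498 in Prmt5 KO. Prmt5 was between 89.4 and 172 CPM (the count scaled to a common library size with TMM factors) in Control and between 26.4 and 40.5 in Prmt5 KO, with no overlap. All 11 germ cell markers listed were tested. At an edgeR adjusted p under 0.05, 0 were called, beside 0.0273% of all 10990 genes. With so few genes called, this does not show the markers to be unchanged. Their log2 fold change was above 0 for 4 and below 0 for 7, with a median of -0.11. Kit, the stem cell factor receptor, went from 1005 ± 102 CPM (SD, n = 4) in Control to 1060 ± 69.2 CPM (SD, n = 4) in Prmt5 KO. Dazl, an RNA-binding germ cell gene, was at 189 ± 116 and 125 ± 59.4 CPM, and Dppa3 at 484 ± 56.8 and 433 ± 75.7 CPM, in the same order. The summed level of all 11 markers ran from 2941 to 3320 CPM in Control and from 2818 to 3340 in Prmt5 KO. Among the 8 libraries, Prmt5 KO 1 and Prmt5 KO 4 stood apart in multidimensional scaling, at -2.26 on dimension 2 and -2.69 on dimension 1. Markers of somatic gonad and mesonephros summed to 605 CPM in Prmt5 KO 1 and to between 133 and 210 in the other 7 libraries. Of 12 markers 10 were detected, and Amh and Foxl2 had no count. Mfge8 alone was at 114 to 180 CPM over the 8 libraries, which was most of the sum in each except Prmt5 KO 1.

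The pluripotency factors were abundant in the sorted cells, and none of them was called different between the genotypes. Both groups were sorted by the dPE_Oct4 reporter, so these levels and changes describe only cells that passed that sort. In Control their means ran from 36.0 CPM for Lin28a to 526 CPM for Sall4, and 8 of the 10 genes lay at percentile 85.6 or above of the genes tested. Of the 10 genes, 0 passed an adjusted p of 0.05 in edgeR's quasi-likelihood test, where 0.0273% of all 10990 genes passed, 0.0182% as higher and 0.0091% as lower in Prmt5 KO. At an unadjusted p under 0.05 in the same test there were also 0 of 10, beside 8.15% of all genes. DESeq2 and limma voom called 0 of the 10 as well, while over all genes DESeq2 called 1.02% of those it gave an adjusted p and limma voom 0.0091%. The groups overlapped for all 10 genes, and over all genes 4.9% did not overlap. With only 10 genes, 0 is an ordinary count at each of these shares and does not set them apart from other genes. The log2 fold change was above 0 for 9 genes and below 0 for Zfp42, with a median of 0.12 beside 0.03 over all genes tested. Over all genes tested, 52.7% were above 0. The 10 genes were read in the same libraries, so their signs are not independent. In some alternative settings the sign turned for Tcl1, Pou5f1, Sall4 and Klf2.

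**Figure D1:**
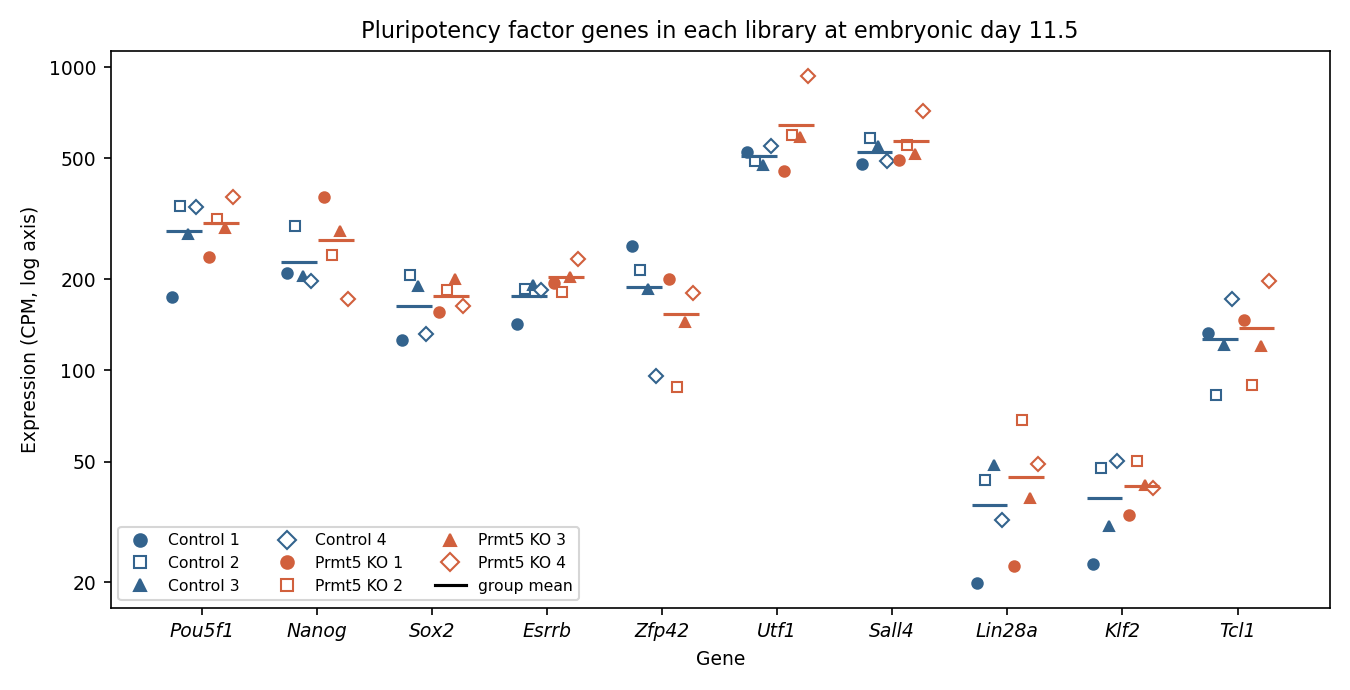
Expression of the 10 genes in each library, in CPM on a log axis. Blue symbols are the 4 Control libraries, orange symbols the 4 Prmt5 KO libraries, and horizontal bars the group means. The groups overlap for every gene, and Prmt5 KO 4 stands highest for Utf1, at 935 CPM.

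Pou5f1 encodes the POU domain factor OCT4, without which the pluripotent state is lost. It lies on chromosome 17 of GRCm38, from 35506018 to 35510772 on the plus strand (ENSMUSG00000024406), and its value came from a transcript of 5 exons. Its level was 174, 347, 282 and 346 CPM in Control 1 to 4 and 237, 316, 295 and 374 CPM in Prmt5 KO 1 to 4. Control 1 was the lowest of the 8 libraries and Prmt5 KO 4 the highest, and the groups overlapped. The means were 287 ± 81.4 and 305 ± 56.7 CPM (SD, n = 4 each), which is 0.09 on the log2 scale (standard error 0.22, edgeR adjusted p = 0.964). The 95% interval of the fold ran from 0.77 to 1.47. Leaving out Control 1 turned the log2 fold change to -0.092, and leaving out Prmt5 KO 4 to -0.022. Exons of Pou5f1 overlap the antisense gene Gm19553, which had 0 counts in all 8 libraries.

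Nanog encodes the homeodomain factor that stabilises pluripotency. It lies on chromosome 6, from 122707489 to 122714633 on the plus strand (ENSMUSG00000012396). Its level was 209, 299, 205 and 196 CPM in Control 1 to 4 and 373, 240, 289 and 172 CPM in Prmt5 KO 1 to 4. The highest and the lowest of the 8 libraries were both Prmt5 KO libraries, namely 1 and 4. On the log2 scale Prmt5 KO minus Control was 0.24 (standard error 0.23, edgeR adjusted p = 0.831), and the 95% interval of the fold ran from 0.84 to 1.66. Without Prmt5 KO 1 the log2 fold change was 0.042, and without Prmt5 KO 4 it was 0.40. Prmt5 KO 1 is also the library with the high somatic marker sum, whose part in the result was not tested.

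Sox2 encodes the HMG box factor that binds DNA beside OCT4. It is a gene of 1 exon on chromosome 3, from 34650405 to 34652461 on the plus strand (ENSMUSG00000074637). Its level was 126, 206, 190 and 131 CPM in Control 1 to 4 and 156, 184, 199 and 163 CPM in Prmt5 KO 1 to 4. All 4 Prmt5 KO libraries lay inside the range of the Control libraries. Between genotypes Sox2 differed by 0.11 on the log2 scale (standard error 0.20, edgeR adjusted p = 0.943), and the 95% interval of the fold ran from 0.80 to 1.46.

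Relative to Pou5f1 in the same library, a measure that does not depend on library scaling, Nanog went from 0.84 ± 0.27 in Control to 0.94 ± 0.47 in Prmt5 KO, and Sox2 from 0.59 ± 0.15 to 0.59 ± 0.11 (ratios of CPM, SD, n = 4 per group). The ratio of Nanog to Pou5f1 went from 0.46 in Prmt5 KO 4 to 1.58 in Prmt5 KO 1, so it varied more within the Prmt5 KO group than between the group means. For each of the other 9 genes the ratio to Pou5f1 overlapped between the groups.

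The promoters of the 3 core factors and of Zfp42, which encodes the zinc finger protein REX1, are shown because the OCT4 binding motif was found in 3 of them. The sequences are from RefSeq on GRCm38.p6 and hold 250 bases before and 50 after an annotated start, 5′ to 3′ on the strand of the gene. Of the 10 genes, 9 were matched by symbol in that table, all except Sall4, and where a gene had several entries the start nearest to the GENCODE gene start was taken. Capitals mark the octamer core ATGCAAA on either strand and, for Nanog, the whole composite element of 14 bases that contains it.
Pou5f1 (chr17:35505782-35506081, plus strand): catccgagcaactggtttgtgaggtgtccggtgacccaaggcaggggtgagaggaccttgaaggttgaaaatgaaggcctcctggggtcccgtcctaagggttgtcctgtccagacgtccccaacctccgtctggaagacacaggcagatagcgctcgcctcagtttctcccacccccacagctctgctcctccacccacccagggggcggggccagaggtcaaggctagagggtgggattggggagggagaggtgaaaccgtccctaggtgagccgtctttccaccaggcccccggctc
Nanog (chr6:122707239-122707538, plus strand): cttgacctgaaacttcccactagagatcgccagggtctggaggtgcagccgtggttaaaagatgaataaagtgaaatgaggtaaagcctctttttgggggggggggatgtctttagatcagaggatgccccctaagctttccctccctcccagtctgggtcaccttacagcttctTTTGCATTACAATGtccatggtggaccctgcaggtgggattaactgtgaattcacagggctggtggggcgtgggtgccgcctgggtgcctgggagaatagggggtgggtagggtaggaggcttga
Sox2 (chr3:34649745-34650044, plus strand): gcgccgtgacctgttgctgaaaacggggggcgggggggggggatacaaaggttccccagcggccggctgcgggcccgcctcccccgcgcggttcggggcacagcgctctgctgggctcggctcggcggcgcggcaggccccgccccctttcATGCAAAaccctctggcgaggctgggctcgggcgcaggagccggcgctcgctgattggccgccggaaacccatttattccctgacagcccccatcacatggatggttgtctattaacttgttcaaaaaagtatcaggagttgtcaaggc
Zfp42 (chr8:43306960-43307259, minus strand): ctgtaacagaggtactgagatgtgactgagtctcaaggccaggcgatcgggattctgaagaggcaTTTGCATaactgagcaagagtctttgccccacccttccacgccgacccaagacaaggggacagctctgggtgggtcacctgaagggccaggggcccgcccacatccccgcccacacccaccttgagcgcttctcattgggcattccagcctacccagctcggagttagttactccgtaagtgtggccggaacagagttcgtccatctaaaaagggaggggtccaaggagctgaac

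The octamer core ATGCAAA, searched on both strands, began 75 bases before the RefSeq start used in Nanog, 99 in Sox2 and 185 in Zfp42. The only Sox2 entry starts 410 bases before the GENCODE gene start given above, so its window ends before the gene as placed there. The octamer core was in the windows of 3 of the 9 matched genes and in 4.63% of all 32851 promoter entries of the same length. The composite OCT-SOX element, a SOX motif beside the octamer core on either strand, was in the Nanog window, where it overlaps the octamer core. It was in 2 of the 32851 entries, both of them starts of Nanog. Only matches over 14 bases inside these windows were sought, so elements outside the windows are not covered. The windows also differed in CpG dinucleotides, the sites of DNA methylation, which germ cells erase at about this age. Klf2 had 32 and Sox2 27, while Esrrb had 7 and Nanog 4, beside a median of 7 over all entries. A match describes the letters only, and methylation and binding were not measured here.

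The naive pluripotency genes Esrrb, Zfp42 and Klf2 are those most active in the ground state of embryonic stem cells. Esrrb, an orphan nuclear receptor (ENSMUSG00000021255, chromosome 12, 86361117 to 86521628, plus strand), was at 142, 185, 191 and 184 CPM in Control 1 to 4 and at 195, 181, 203 and 233 CPM in Prmt5 KO 1 to 4. All 4 Prmt5 KO libraries were above the Control mean of 175 ± 22.7 CPM (SD, n = 4), but Prmt5 KO 2 lay below 3 of the Control libraries. Esrrb differed by 0.21 on the log2 scale (standard error 0.17), which did not pass (edgeR adjusted p = 0.791), with a 95% interval of the fold from 0.90 to 1.49. Without Control 1, the low Control library, it was 0.12 on the log2 scale.

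Zfp42 (ENSMUSG00000051176, chromosome 8, 43295063 to 43306980, minus strand) was the 1 gene of the 10 with a lower mean in Prmt5 KO. Its level was 258, 215, 185 and 95.7 CPM in Control 1 to 4 and 200, 87.8, 144 and 180 CPM in Prmt5 KO 1 to 4. It varied 2.69-fold among the Control libraries alone, and the low values were in 1 library of each group. For Zfp42 the log2 fold change was -0.30 (standard error 0.30, edgeR adjusted p = 0.843), and the 95% interval of the fold ran from 0.52 to 1.27. It stayed below 0 in all 22 alternative settings, from -0.70 to -0.11, but these settings reuse the same libraries.

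Klf2, a zinc finger factor of the Krüppel-like family (ENSMUSG00000055148, chromosome 8, 72319033 to 72321656, plus strand), was much scarcer. It was at 23.0, 47.8, 30.7 and 50.3 CPM in Control 1 to 4 and at 33.3, 50.4, 42.0 and 40.9 CPM in Prmt5 KO 1 to 4. The Prmt5 KO libraries lay inside the Control range except Prmt5 KO 2, which was just above it. The lowest count behind these values was 56, in a shallow library, where counting error alone is 13.4%. Klf2 differed by 0.13 on the log2 scale (standard error 0.33, edgeR adjusted p = 0.964), and by -0.051 without Control 1.

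Utf1 and Sall4, which act on chromatin, were the most abundant of the 10 by counts. Utf1, a transcription coactivator of pluripotent cells (ENSMUSG00000047751, chromosome 7, 139943789 to 139945112, plus strand), stood at 526, 490, 475 and 548 CPM in Control 1 to 4 and at 454, 597, 587 and 935 CPM in Prmt5 KO 1 to 4. The 4 Control libraries were within a 1.15-fold range, while the Prmt5 KO libraries included both the lowest and the highest value of the 8. Its log2 fold change was the largest of the 10, at 0.33 (standard error 0.19), and did not pass (unadjusted p = 0.0952 and edgeR adjusted p = 0.681). The 95% interval of the fold ran from 0.95 to 1.67. It became 0.099 without Prmt5 KO 4 and 0.47 without Prmt5 KO 1, and in the latter fit the edgeR adjusted p was 0.481.

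Sall4, a zinc finger repressor that works with the NuRD complex (ENSMUSG00000027547, chromosome 2, 168748332 to 168767943, minus strand), stood at 481, 585, 549 and 489 CPM in Control 1 to 4 and at 493, 554, 516 and 715 CPM in Prmt5 KO 1 to 4. Prmt5 KO 4 was the 1 library outside the Control range. Sall4 differed by 0.12 on the log2 scale (standard error 0.14, edgeR adjusted p = 0.895), and the 95% interval of the fold, from 0.87 to 1.34, was the narrowest of the 10. Without Prmt5 KO 4 it was -0.012. The opposite-strand gene Gm14261, which overlaps its exons, had 1 count in all libraries together.

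Lin28a and Tcl1 act outside transcription. Lin28a encodes the RNA-binding protein that blocks maturation of the let-7 microRNAs (ENSMUSG00000050966, chromosome 4, 134003330 to 134018841, minus strand). It was at 19.9, 43.3, 48.8 and 32.0 CPM in Control 1 to 4 and at 22.6, 68.4, 37.9 and 49.1 CPM in Prmt5 KO 1 to 4. Library 1 of each group was low, and Prmt5 KO 2 was the highest of the 8. Lin28a differed by 0.32 on the log2 scale (standard error 0.40, edgeR adjusted p = 0.897), and its 95% interval of the fold, from 0.69 to 2.25, was the only one of the 10 that reached beyond a 2-fold change. The overlapping opposite-strand gene Gm13061 had 2 counts in all.

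Tcl1 encodes a coactivator of the kinase Akt (ENSMUSG00000041359, chromosome 12, 105216750 to 105222793, minus strand). It was at 133, 82.6, 121 and 172 CPM in Control 1 to 4 and at 147, 89.7, 121 and 196 CPM in Prmt5 KO 1 to 4. Both groups ran over nearly the same range. Its log2 fold change of 0.12 (standard error 0.27, edgeR adjusted p = 0.962), was the least stable in sign, falling below 0 in 5 of 22 alternative settings.

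The precision of these comparisons can be read from the intervals. For 9 of the 10 genes the unadjusted 95% interval lay within a 2-fold change in either direction, which was so for 33.6% of all genes tested. Over the 4633 genes with a Control mean between those of Lin28a and Sall4, the share was 69.7%. The median size of the log2 fold change, sign left out, was 0.17 for the 10 genes, 0.31 for all genes tested and 0.22 for the genes in that range of levels. These intervals bound the change of each gene in these libraries and do not show that the genotypes were alike. In RNA from pooled cells, fewer expressing cells and less RNA per cell cannot be told apart.

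**Figure D2:**
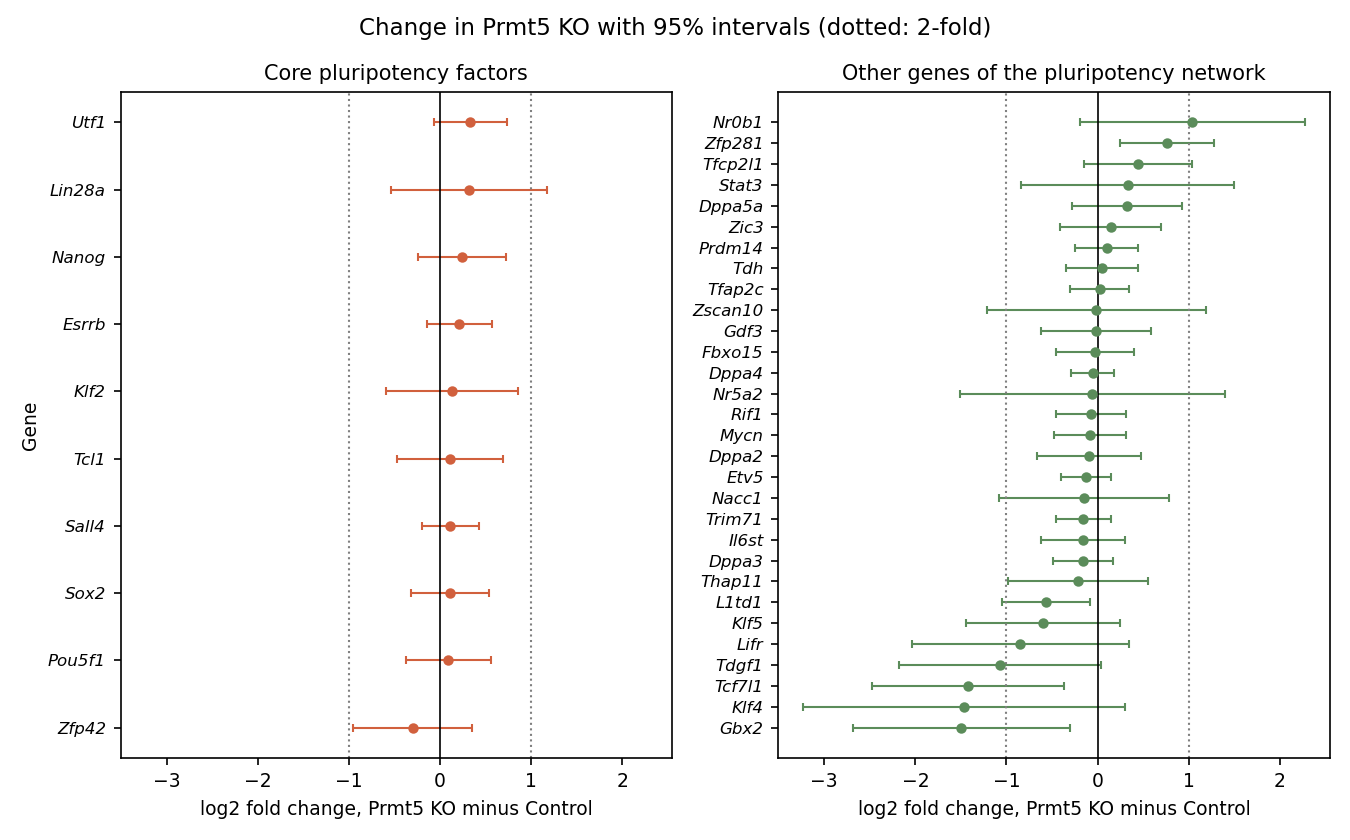
Log2 fold change of Prmt5 KO against Control from edgeR for the 10 core factors (left) and the 30 tested genes of the wider network (right). Points are estimates, bars are unadjusted 95% intervals and dotted lines mark a 2-fold change. On the left only Lin28a has a bar that crosses a dotted line.

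The spread between libraries of 1 genotype set the scale against which these changes were read. The coefficient of variation in Control ran from 6.58% for Utf1 and 9.47% for Sall4 to 35.5% for Lin28a and 36.4% for Zfp42. Its median was 26.6% in Control and 25.0% in Prmt5 KO, beside 31.7% and 39.9% over all genes tested. For genes in the same range of levels the medians were 21.04% and 25.7%, so the members' median lay above that of genes of like abundance in Control and slightly below it in Prmt5 KO. Utf1 was the least variable of the 10 in Control, and went from 6.58% there to 31.9% in Prmt5 KO, where Prmt5 KO 4 was far above the rest.

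Single libraries stood high or low for several of the genes at once. Control 1 was the lowest Control library for 6 genes, Pou5f1, Sox2, Esrrb, Sall4, Lin28a and Klf2, and the highest for Zfp42. Prmt5 KO 1 was the lowest of its group for Pou5f1, Sox2, Utf1, Sall4, Lin28a and Klf2, also 6 genes, and the highest for Nanog and Zfp42. Prmt5 KO 4 was the highest of its group for 5 genes, Pou5f1, Esrrb, Utf1, Sall4 and Tcl1, and the lowest for Nanog. The same was not counted over all genes tested, so these highs and lows are not shown to be particular to the 10 genes. Prmt5 KO 1 and 4 also stood apart in the multidimensional scaling above. The summed level of the 10 genes was 3059 CPM in Prmt5 KO 4 and between 2091 and 2500 in the other 7 libraries. With Prmt5 KO 1 and 4 both left out, 0 of the 10 genes passed and their median log2 fold change was 0.18.

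**Figure D3:**
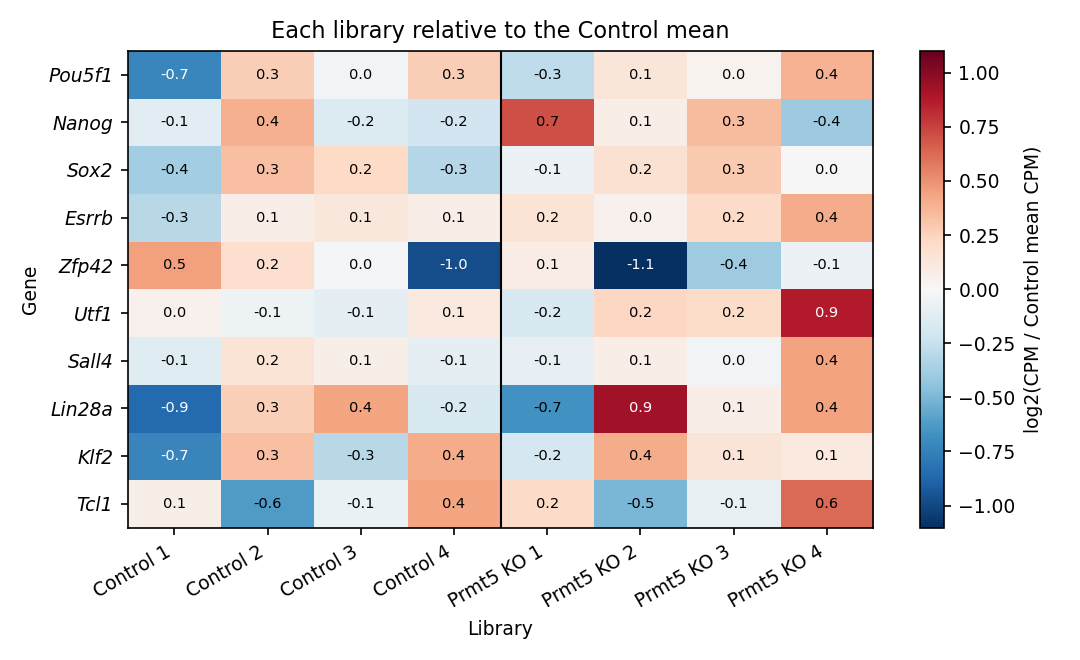
Level of each gene in each library relative to the Control mean, as log2 of the CPM ratio. Columns are libraries, rows are genes, red is above and blue below the Control mean. Control 1 and Prmt5 KO 1 are each the lowest of their group for 6 genes, and Prmt5 KO 4 is the highest of its group for 5.

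To order the genes by level, counts were divided by transcript length. In Control, Utf1 led at 415 ± 27.3 CPM per kb, followed by Pou5f1 at 211 ± 59.8 (SD, n = 4 each), and their ranges did not overlap. Below them came Zfp42 at 106, Sall4 at 104, Nanog at 103, Tcl1 at 91.0 and Sox2 at 79.4 CPM per kb. Each of these overlapped its neighbours, including Pou5f1 with Zfp42, so their order is not set beyond the spread. Esrrb followed at 40.8 ± 5.28, Klf2 at 20.5 ± 7.16 and Lin28a at 10.3 ± 3.65 CPM per kb. The ranges of Sox2 and Esrrb, and of Esrrb and Klf2, did not overlap, while those of Klf2 and Lin28a did. Sall4 thus went from the highest of the 10 by counts to the fourth per length, since its transcript has 5073 bases against 1227 for Utf1.

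**Figure D4:**
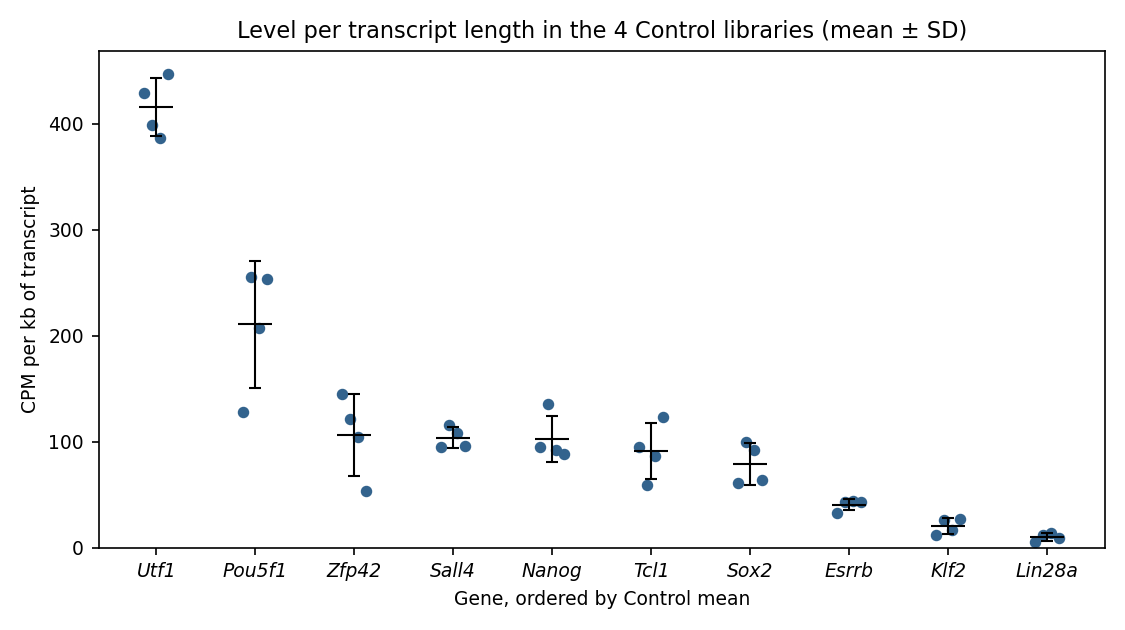
CPM per kb of transcript in the 4 Control libraries, with genes ordered by their mean. Points are libraries, and bars show the mean and SD. Utf1 lies above all other genes, 5 genes from Zfp42 to Sox2 overlap, and Klf2 and Lin28a are lowest.

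Counts were unevenly spread along some transcripts, which limits any level per length. Esrrb-201 shares 2050 of the 4300 bases of the Esrrb transcript used, yet had only 15.6% ± 3.56 (SD, n = 4) as many counts in the Control libraries, and 16.3% ± 7.65 (SD, n = 4) in Prmt5 KO. By contrast, Pou5f1-206 shares 406 of the 1362 bases of the Pou5f1 transcript used and had 51.8% ± 3.25 (SD, n = 4) as many counts in the Control libraries, and 51.9% ± 4.21 (SD, n = 4) in Prmt5 KO. For Tcl1 the transcript annotated as a target of nonsense-mediated decay, Tcl1-206, was at 32.7% ± 2.88 and 30.1% ± 1.61 of the main one (SD, n = 4 each). For all alternative transcripts of the 10 genes with at least 100 counts, these percentages overlapped between the groups. Transcripts of a gene share reads, so none of these is a measure of splicing by itself.

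Relatives of the 10 genes ranged widely in level. Of 22 listed relatives 12 were tested, 0 were called, and the median log2 fold change was 0.15. Sox15, an HMG box factor of the Sox family, was at 54.6 ± 18.8 CPM per kb in Control, beside 79.4 ± 19.8 for Sox2 (SD, n = 4 each), and their ranges overlapped. Sall1, a zinc finger relative of Sall4, was at 25.4 ± 4.12 CPM per kb and Lin28b, which also blocks let-7, at 3.05 ± 1.35 (SD, n = 4 each). Of the Krüppel-like genes, Klf5 was at 37.1 ± 11.1 CPM, close to Klf2 at 37.9 ± 13.2, while Klf4 was at 4.53 ± 3.67 (SD, n = 4 each, Control). Klf4 and Klf5 also stand in the network list described next. In Prmt5 KO, Klf5 was at 24.4 ± 10.3 and Klf4 at 1.57 ± 1.45 CPM (SD, n = 4 each), and neither passed (edgeR adjusted p = 0.752 and 0.681). Pou2f1, the ubiquitous OCT1 factor, was at 72.1 ± 17.6 CPM and Yy1, the relative of Zfp42, at 27.4 ± 2.44 in Control (SD, n = 4 each). Sox17 and Tcl1b3 had no count, and Tcl1b1, Tcl1b2, Tcl1b4, Tcl1b5 and Sox21 had between 2 and 13 counts in all libraries together.

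The wider pluripotency network was counted for comparison, from a list of 34 other genes. Of these, 30 were tested, 0 were called, 9 had a log2 fold change above 0 and 21 below, with a median of -0.080, where 52.7% of all genes tested were above 0. At an unadjusted p under 0.05 there were 4 of 30, beside 8.15% of all genes. The smallest unadjusted p belonged to Zfp281, a zinc finger partner of the core factors. Zfp281 was at 110, 56.7, 68.0 and 73.7 CPM in Control 1 to 4 and at 145, 141, 137 and 102 CPM in Prmt5 KO 1 to 4. The Prmt5 KO libraries were above 3 of the 4 Control libraries, with a log2 fold change of 0.76 (standard error 0.24) that missed the threshold (edgeR adjusted p = 0.409). Tcf7l1, which represses pluripotency genes, was at 27.4, 18.8, 15.9 and 42.4 CPM in Control 1 to 4 and at 10.1, 8.53, 14.4 and 5.98 CPM in Prmt5 KO 1 to 4. The groups of Tcf7l1 did not overlap, but its log2 fold change of -1.42 (standard error 0.49) also missed it (edgeR adjusted p = 0.457). Exons of Tcf7l1 overlap Gm15401 on the opposite strand, those of Gbx2 overlap D130058E05Rik and those of Sox15 overlap Mpdu1, and reads of such pairs may not have been told apart. The other 2 of these 4, named after their values were seen, were Gbx2 (log2 fold change -1.50, edgeR adjusted p = 0.505) and L1td1, an RNA-binding protein gene of pluripotent cells (-0.57, edgeR adjusted p = 0.540).

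Profiles over the 8 libraries were also compared, as the root mean square difference of log2 CPM after centring each gene on its mean. Among 10063 genes, the closest to Pou5f1 were Poldip3 at 0.11, Acin1 at 0.11 and Map2k7 at 0.12. The closest of the other 9 pluripotency factors was Klf2, at 0.18. For Nanog the closest were Tnks2 at 0.12, Glipr2 at 0.14 and Fignl1 at 0.14, and the nearest factor was Sox2 at 0.35. For Sox2 they were Ndufaf3 at 0.084, Epcam at 0.11 and Cecr2 at 0.11, and the nearest factor was Esrrb at 0.23. None of the 3 core factors had another of the 10 genes among its 3 closest. With only 9 other factors among 10063 genes this was likely by numbers alone, and it does not show that the factors vary apart.

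Markers of other cells that might have entered the sort were read on the same scale, and their part in the results was not tested. Of the somatic gonad list, Mfge8 was the most abundant, going from 145 ± 27.2 CPM (SD, n = 4) in Control to 167 ± 10.8 CPM (SD, n = 4) in Prmt5 KO. Of the 5 members of that list tested 0 were called, with a median log2 fold change of 1.53, and Acta2 was at 208 CPM in Prmt5 KO 1 against 2.71 to 7.13 in the other libraries. Col1a1 was likewise at 92.9 CPM in Prmt5 KO 1 and at 1.74 to 6.25 in the others. Wt1, Pdgfra and Gata4 were also highest in Prmt5 KO 1, at 39.3, 24.5 and 29.7 CPM, against at most 20.1, 4.93 and 8.27 elsewhere. Nr5a1, Nr2f2 and Lhx9 were at 14.9, 10.6 and 8.27 CPM there, against at most 0.549, 2.19 and 1.04. Mfge8 and Pax2 were not highest there, so the list was raised mainly in that library. All 6 endothelial markers were detected. Most of their sum, from 279 to 360 CPM in Control and from 296 to 395 in Prmt5 KO, was Pecam1, which primordial germ cells also express, at 283 ± 46.1 and 276 ± 46.2 CPM (SD, n = 4 each). The 3 endothelial markers tested had a median log2 fold change of -0.033 and 0 were called. Tek had a mean of 12.3 ± 11.2 CPM in Control against 52.3 ± 28.1 in Prmt5 KO (SD, n = 4 per group, edgeR adjusted p = 0.409), and Egfl7 one of 12.4 ± 6.87 against 5.43 ± 2.49 (edgeR adjusted p = 0.684). Cdh5 had means of 2.20 ± 2.40 and 0.699 ± 0.564 CPM in the same order, and Kdr had counts in 1 Control library and none in Prmt5 KO. The blood and macrophage list had counts for 3 of 6 markers and summed to between 6.48 and 43.6 CPM over the 8 libraries, nearly all of it Csf1r, whose exons overlap Hmgxb3 on the opposite strand, and Ptprc was at 0 in Control. The neural list had counts for 5 of 6 markers, with no count for Neurog2, and summed to 24.6 to 55.2 CPM in Control and 18.4 to 38.2 in Prmt5 KO. Of its 3 tested members 0 were called, with a median log2 fold change of -0.72. Pax6 had a mean of 9.99 ± 10.8 CPM in Control against 2.49 ± 1.84 in Prmt5 KO (SD, n = 4 per group, edgeR adjusted p = 0.597), with 25.7 CPM in Control 4. Nes had means of 9.33 ± 4.91 and 5.57 ± 3.98 CPM (edgeR adjusted p = 0.851), and Elavl4, not tested, 2.02 ± 1.97 and 0.397 ± 0.110. Tubb3 was the most abundant gene of the list, at 13.2 ± 3.75 and 16.6 ± 2.69 CPM (SD, n = 4 each), and Sox1, the neural relative of Sox2, was at 1.43 ± 0.265 and 1.40 ± 0.60.

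The direction of each change was followed through 22 alternative settings. They reuse the same libraries, and the fit without robust estimation repeats the main estimates. The 22 are therefore not independent checks. In none of them did any of the 10 genes pass in either direction, with the lowest adjusted p of a gene at 0.481. Nanog, Sox2, Esrrb, Utf1 and Lin28a stayed above 0 and Zfp42 below 0 in all 22, though Sox2 went as low as 0.0013. The sign turned in 5 settings for Tcl1, 2 for Pou5f1, 1 for Sall4 and 1 for Klf2.

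**Figure D5:**
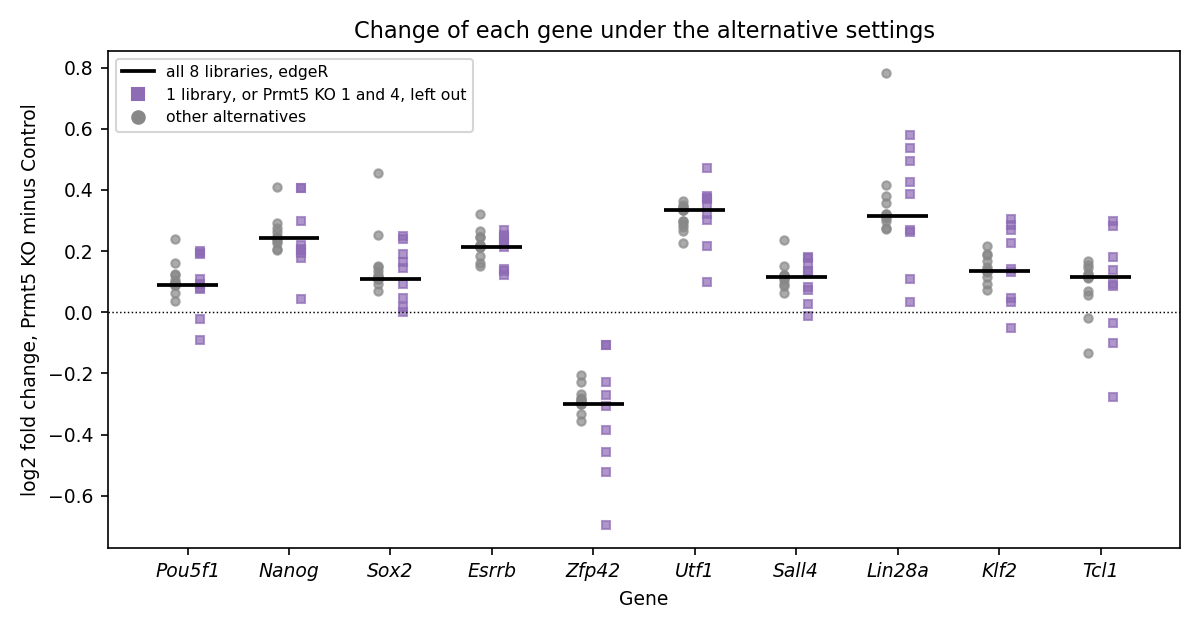
Log2 fold change of each gene, Prmt5 KO minus Control, with all 8 libraries (black bars), with 1 library or Prmt5 KO 1 and 4 left out (purple squares) and under the other alternatives (grey circles). Zfp42 lies below 0 throughout, and the spread is widest for Lin28a, from 0.034 to 0.78.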

How the data were processed

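RNA of sorted primordial germ cells was extracted with a PicoPure kit and made into libraries from 50 pg of total RNA, per the labels' protocols. The files the authors deposited hold raw counts per Ensembl transcript, listing those with at least 1 count. As builds, GRCm38 and mm10 are named in the submitters' processing notes. The sources used here do not state the aligner, counter or strand setting. The design assumed genes, so identifiers were joined to GENCODE M21 (64258 of 66262 matched; between 1.75% and 1.90% of counts per library did not). A gene took its transcript with the highest total, because transcripts share reads. edgeR 4.0.16 (R 4.3.3) kept genes by filterByExpr (minimum count 10, minimum total 15), scaled by TMM (CPM uses these sizes) and ran the robust quasi-likelihood test on all 8 libraries, with Benjamini-Hochberg adjustment over 10990 genes at 0.05. Standard errors are the log2 fold change divided by the square root of F, and intervals use the matching t quantile. Total counts, genes detected and mitochondrial share gave unadjusted p of 0.257, 0.314 and 0.371 between groups (two-sided exact permutation, 70 assignments, smallest possible p 0.0286; 0.371 adjusted for all 3). The test was checked on simulated data. Alternatives used edgeR settings, DESeq2 1.42.0 and limma 3.58.1. Figures used matplotlib 3.10.9. Named genes were Prmt5, all 10 members, from each list the called members or the 2 with the smallest unadjusted p, relatives with a Control mean of at least 10 CPM, for each other cell type its most abundant marker, and the 3 nearest profiles of Pou5f1, Nanog and Sox2. Other genes were named after their values were seen. Members and lists were chosen with earlier results of these data known.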

Additional observations from a re-analysis of the deposited data

Results flagged for a closer look

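Sets of 4 values, 1 per library of a genotype, were screened for a single distant library. Of 70 such sets, 10 held one, where chance gives about 1 in 20. Genes also enter list sums, so the sets are not independent. Nanog was high in Control 2 (299 CPM, next 209), and Esrrb was low in Control 1 (142 CPM, next 184). The summed level of the 10 pluripotency factors was high in Prmt5 KO 4 (3059 CPM, next 2433), and that of the wider network was high in Prmt5 KO 3 (5170 CPM, next 4725). In Prmt5 KO 1, Acta2 (208 CPM), Col1a1 (92.9 CPM), the somatic gonad sum (605 CPM) and the mitochondrial share of counts (11.3%) were high. Col1a1 was high in Control 2 (6.25 CPM) and Tek in Control 1 (28.9 CPM).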

How the results depend on the processing

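Over 22 alternatives the count of pluripotency factors called stayed at 0 in both directions, and the median log2 fold change of the 10 moved by less than its spread between Prmt5 KO libraries (0.20). Signs turned for Tcl1 with limma voom (-0.018), without Control 2 (-0.036), without Prmt5 KO 4 (-0.10), without Control 2 and 3, the shallowest libraries (-0.13), and without Prmt5 KO 1 and 4 (-0.28); for Pou5f1 without Control 1 (-0.092) or Prmt5 KO 4 (-0.022); for Sall4 without Prmt5 KO 4 (-0.012); and for Klf2 without Control 1 (-0.051). Leaving out 1 library at most raised Sall4 to 0.18 (without Prmt5 KO 1), Klf2 to 0.30 and Tcl1 to 0.30 (both without Control 4). The cause was not tested. Utf1 had an unadjusted p under 0.05, the only 1 of the 10, with no filter on low counts and without Prmt5 KO 1. Over all genes, 2 were called higher and 1 lower. The counts higher and lower were 1 and 1 with upper quartile scaling, total-count scaling or no robust estimation, 62 and 45 with DESeq2 (with 1 endothelial marker), 1 and 0 with limma voom, 5 and 2 with no filter, 1 and 0 with sums over transcripts, 1 and 0 without Prmt5 in the table, 0 and 0 without the shallowest pair, and 1 and 0 without Prmt5 KO 1 and 4. Leaving out 1 library gave 1 higher and 0 to 1 lower. The replicate block gave 1 higher and 0 lower, with 0 of the 10 factors called. Deviations of genes from their group means correlated at 0.0016 to 0.0695 between same-numbered libraries and at -0.0939 to 0.0367 between the others. Pairs 1, 2 and 4 each had the highest value of both their libraries, and pair 3 did not. Pairing is not stated in the labels, and these values do not settle it. Summed over transcripts, which counts shared reads repeatedly, Control levels became 464 CPM for Pou5f1, 294 for Nanog, 72.7 for Sox2, 83.9 for Zfp42, 227 for Utf1, 688 for Sall4, 16.3 for Lin28a, 16.9 for Klf2 and 185 for Tcl1. Sox2, Utf1 and Klf2 have 1 annotated transcript and Zfp42 has 1 with counts, so summing left their counts unchanged. Their CPM fell only because the library totals grew. The fits without Prmt5 KO 1 and 4 and without Prmt5 were chosen after seeing the data. Depth limits the scarce genes most: counting error reached 13.4% for Klf2, at its lowest count of 56.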
